A study of Homo sapiens with 5 samples.

Results

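The kinase AKT is switched on by phosphorylation and switched off by phosphatases, and 9 genes of that machinery are described here in alveolar rhabdomyosarcoma cells after circVAMP3 knock-down. They are the AKT paralogs AKT1 and AKT2, the upstream kinase PDPK1, the mTORC2 subunits MTOR, RICTOR, MAPKAP1 and MLST8, and the phosphatases PHLPP1 and PHLPP2. The genes were chosen by symbol for these roles, and all 9 were found among the 13822 genes of the expression table.

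RH4 is an established cell line of alveolar rhabdomyosarcoma, a tumor of skeletal muscle character. The 3 si-SCR libraries came from cells given a control siRNA, and the 2 si-circVAMP3 libraries from cells given an siRNA against the back-splicing junction of circVAMP3, a circular RNA made from the VAMP3 gene. In both groups 30 nM siRNA was delivered with Dharmafect-1, the medium was changed at 24 h, and the cells were collected 24 h after that change. Poly-A RNA was sequenced with a stranded kit, so a circular RNA, which has no poly-A tail, was not measured. A single siRNA against the circle and a single cell line were used, and p-values given here measure the spread between these libraries, which the study describes as biological replicates.

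AKT is recruited to the plasma membrane by the phosphoinositides that PI3K makes. There PDPK1 phosphorylates its activation loop and mTORC2 phosphorylates its hydrophobic motif, and PHLPP and PP2A phosphatases remove these phosphates. Active AKT promotes survival, growth and cell cycle entry, and the pathway is often engaged in rhabdomyosarcoma.

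Levels are given in FPKM, which scales fragments by exon length and by library size. Whole read pairs behind these values could be recovered and came to 26441412, 25046696 and 24934425 in si-SCR replicates 1, 2 and 3, and to 18625415 and 28818686 in si-circVAMP3 replicates 1 and 2. The median FPKM over the table was 4.772, 4.765 and 4.744 in si-SCR and 4.67 and 4.691 in si-circVAMP3. Library weights estimated by limma, which are low for a library that deviates from its group, were 0.722, 3.04 and 0.383 in si-SCR. Among the si-SCR libraries replicate 3 thus stood apart most. Both si-circVAMP3 libraries had a weight of 1.09. In a group of 2 the libraries deviate equally from their mean, so the weights cannot single out either of them. Calls among the 9 genes and the marker genes that turn on this library are given with and without it.

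The muscle identity of the cells was visible in every library. Of 10 markers of alveolar rhabdomyosarcoma and skeletal myoblasts, 9 were in the table and MYF5 was not. Their summed level was 777, 770 and 665 FPKM in si-SCR and 643 and 645 FPKM in si-circVAMP3, with the intermediate filament gene DES the most abundant. The myogenic factor MYOD1 stood at 115, 105 and 84.3 FPKM in si-SCR and at 106 and 127 FPKM in si-circVAMP3. MYOG, which drives terminal differentiation, was at 175, 179 and 149 FPKM in si-SCR and at 101 and 96.6 FPKM in si-circVAMP3. Its si-circVAMP3 libraries both lay below all si-SCR libraries, with a log2 fold change of −0.76 and an adjusted p of 0.00149. The acetylcholine receptor subunit CHRNG was lower as well (log2 fold change −0.59, adjusted p = 7.17e-04). These were 2 of the 9 markers, beside 16.7% lower and 15.8% higher over all genes tested. The other 7 markers were called neither. Of the 7, 5 had negative log2 fold changes, which were −0.35 for the cadherin gene CDH15, −0.11 for DES, −0.10 for PAX3, −0.06 for the receptor subunit CHRNA1 and −0.06 for MYCN. Those of MYOD1 (0.20) and of MYMK (0.26), a gene for the fusion of myoblasts with each other, were positive. Without si-SCR replicate 3, CDH15 was called lower (−0.53, adjusted p = 0.00452, within a range of 0.00452 to 0.523 over all alternatives), and so was DES (−0.18, adjusted p = 0.0249, within 0.0249 to 0.752).

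Of 5 fibroblast markers, 4 were in the table, and their sum of 35.5, 32.8 and 33.3 FPKM in si-SCR and 31.1 and 28.6 FPKM in si-circVAMP3 was almost entirely COL3A1. The log2 fold change of COL3A1 was −0.18 with an adjusted p of 0.0501, and without si-SCR replicate 3 it was −0.19 with an adjusted p of 0.0478, within a range of 0.0273 to 0.282 over all alternatives. COL1A1 did not exceed 0.233 FPKM in any library. None of the 4 epithelial and none of the 4 leukocyte markers was in the table, and of 4 endothelial markers PECAM1 was there, at 0.0777 to 0.153 FPKM. In bulk RNA, fewer cells of a kind and less RNA per cell cannot be told apart, and the part of the muscle markers in the values below was not tested.

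The gene that carries circVAMP3 was read first. VAMP3, which encodes a vesicle membrane protein, was at 36.4, 35.4 and 37.4 FPKM in si-SCR and at 29.4 and 30.2 FPKM in si-circVAMP3. Both si-circVAMP3 libraries lay below the lowest si-SCR library. Linear VAMP3 RNA thus stood at 81.8% of its si-SCR mean, with a log2 fold change of −0.29 (SE 0.04, adjusted p = 0.00473). These reads come from the linear transcript and do not check the level of the circle.

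The sequence of the siRNA is shown because letters of it recur in the transcripts described below. Without its 2 overhanging letters, the strand listed by the study joins 8 letters from the end of VAMP3 exon 4 to 11 letters from the start of exon 3, and a circle of these exons would measure 211 nucleotides. Linear VAMP3 holds 12 of these 19 letters in a row. In the first line the capitals mark the 7 letters that are complementary to positions 2 to 8 of the opposite strand, and in the second line they mark those positions, often called the seed.
Listed strand of the siRNA: caucaucggugGUGGACAuuu
Opposite strand without overhang: aUGUCCACcaccgaugaug
The DNA form of the first capitals, GTGGACA, was searched on the sense strand of 1 transcript per gene, the Ensembl canonical transcript of GENCODE v44 on GRCh38. VAMP3 itself holds it at chr1:7777163-7777169 and at chr1:7777184-7777190 on the plus strand, both in the coding sequence of exon 3. A match of these letters is a description, not a site or a cause, and which siRNA strand was active in these cells was not tested.

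Across the whole table, 11094 genes with a mean of at least 1 FPKM were tested with limma on log2(FPKM + 0.5), and fold changes are on that scale. With Benjamini-Hochberg adjustment over all of them, 3606 genes had an adjusted p under 0.05. The lower genes numbered 1850 (16.7% of those tested) and the higher genes 1756 (15.8%). Asking in addition for an absolute log2 fold change over 0.58 left 306 lower genes (2.76%) and 114 higher genes (1.03%). Without si-SCR replicate 2 the count of all calls was 2153, and without si-circVAMP3 replicate 1 or 2 it was 1353 or 1250.

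All 9 genes passed the filter on low values. Lower calls fell on 3 of the 9, AKT1, AKT2 and MAPKAP1, beside the 16.7% of all genes that were lower. Higher calls fell on 0 of the 9, beside 15.8%, and at an unadjusted p under 0.05 in limma, or with limma's voom on the recovered read pairs, that count was 1, PHLPP2. By the stricter rule 1 of the 9, AKT1, was lower, beside 2.76%, and 0 were higher, beside 1.03%. The median log2 fold change of the 9 genes was −0.07, and that of all genes tested was 0.01. With 9 genes these shares are a description. AKT1 and MAPKAP1 were also called in each of the 15 alternative settings that were run, and AKT2 in 12 of 15.

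**Figure D1:**
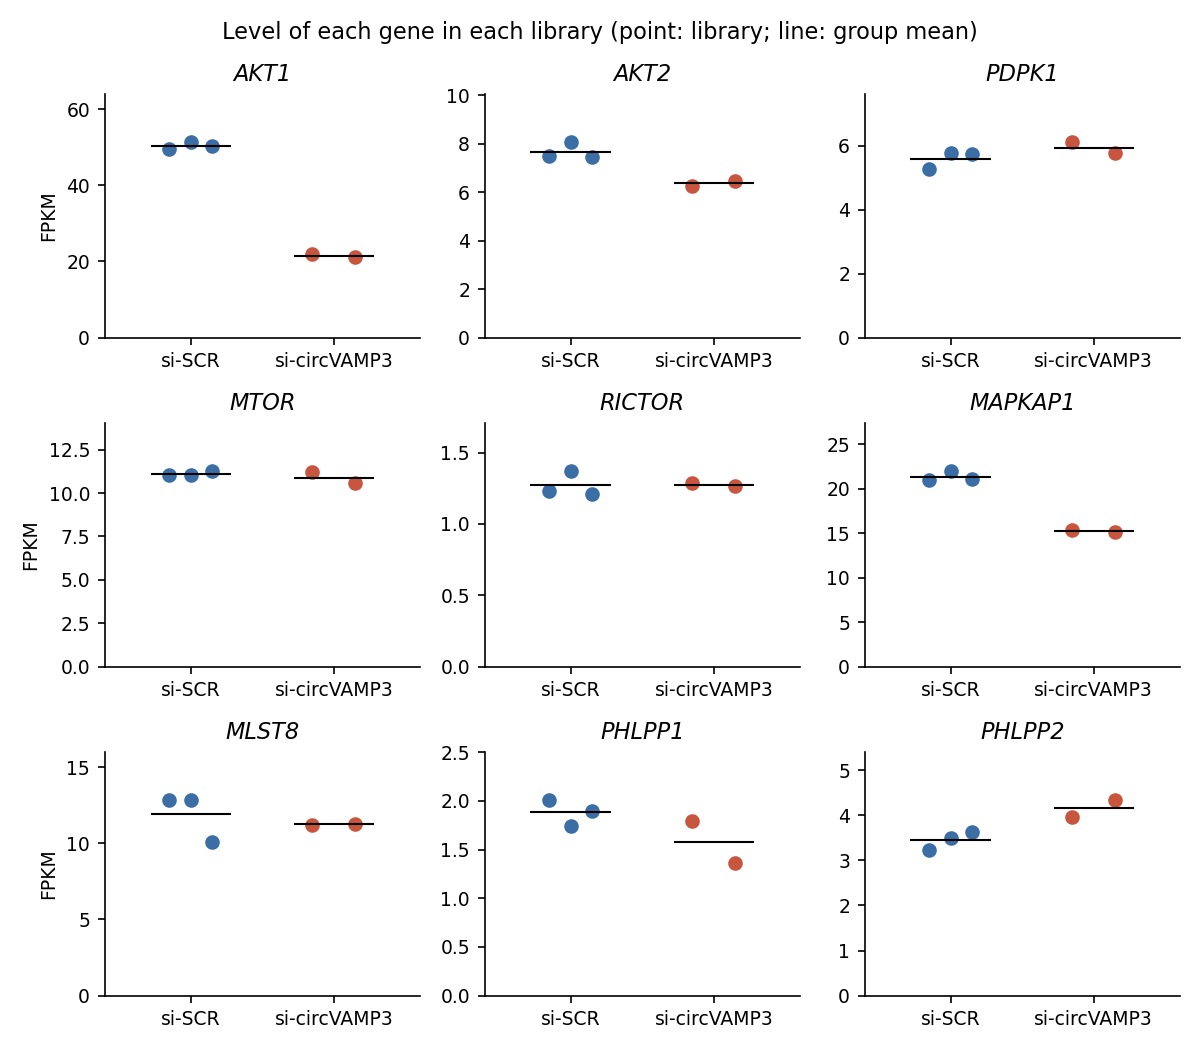
Level of each of the 9 genes in FPKM (vertical axes, from 0) in the 3 si-SCR and 2 si-circVAMP3 libraries; points are libraries and lines are group means. The AKT1 points lie at 49.5 to 51.3 in si-SCR and at 21.3 to 21.8 in si-circVAMP3.

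The levels of the 9 genes can be put in order, since FPKM is per length, here a length at or near that of all annotated exons of a gene joined. In si-SCR, AKT1 was the most abundant of the 9, with a mean of 50.3 FPKM. MAPKAP1 followed at 21.4, MLST8 at 11.9, MTOR at 11.1, AKT2 at 7.68, PDPK1 at 5.59, PHLPP2 at 3.46, PHLPP1 at 1.88 and RICTOR at 1.27 FPKM. MLST8 and MTOR were the neighbors whose libraries overlapped. The order of the means was the same in si-circVAMP3, with AKT1 at 21.6 and MAPKAP1 at 15.3 FPKM, so the step from AKT1 to MAPKAP1 was smaller there. This length exceeds the canonical transcript by a factor of 1.39 for MTOR and up to 3.77 for AKT1, so the order depends in part on the choice of length. Per length of the canonical transcript, AKT2 (23.3 in si-SCR and 19.3 in si-circVAMP3) passed MTOR (15.5 and 15.2), and the other 7 genes kept their places. RICTOR, the subunit that defines mTORC2, had the lowest mean of the 9 in both groups on either length. Over the table of 13822 genes, AKT1 lay at the 92.2 percentile of mean level and RICTOR at the 23.2 percentile.

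AKT1 encodes the kinase of this family that is chiefly tied to growth and survival. Its level was 49.5, 51.3 and 50.2 FPKM in si-SCR and 21.8 and 21.3 FPKM in si-circVAMP3. The groups were far apart, and within each group the libraries differed by little. These values rest on 14746, 14303 and 13988 read pairs in si-SCR and on 4519 and 6842 in si-circVAMP3, over 11162 bases of exon.

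The AKT1 means were 50.3 ± 0.877 FPKM (SD, n = 3) and 21.6 ± 0.395 FPKM (SD, n = 2), so that 42.8% of the si-SCR level was left. Its log2 fold change was −1.20 (SE 0.04, 95% interval −1.30 to −1.11) with an adjusted p of 4.29e-05. By p-value AKT1 ranked 5 among all genes tested. Over the alternative settings the estimate stayed between −1.23 and −1.19.

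The AKT1 gene lies at chr14:104769349-104795751 on the minus strand, and no exon of another gene on that strand overlaps its exons. Its canonical transcript holds GTGGACA at 2 places, both in the coding sequence. They are shown in transcript direction with 10 letters on each side and the match in capitals. The first lies in exon 6 of 15 at chr14:104775787-104775793 and its flank runs across an exon junction. The second lies in exon 15 at chr14:104770397-104770403.
AKT1 exon 6: agcgggaggaGTGGACAaccgccatcc
AKT1 exon 15: catggagtgtGTGGACAgcgagcgcag

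AKT2 encodes the paralog best known from insulin-stimulated glucose uptake. It was at 7.51, 8.06 and 7.47 FPKM in si-SCR and at 6.26 and 6.47 FPKM in si-circVAMP3. All si-SCR libraries lay above both si-circVAMP3 libraries, by a far smaller step than for AKT1. The means were 7.68 ± 0.328 FPKM (SD, n = 3) and 6.36 ± 0.148 FPKM (SD, n = 2). AKT2 was called lower with a log2 fold change of −0.25 (SE 0.06, 95% interval −0.39 to −0.12) and an adjusted p of 0.0183.

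The AKT2 call was lost when certain libraries were left out. Its adjusted p was 0.0658 without si-SCR replicate 2, 0.119 without si-circVAMP3 replicate 1 and 0.0823 without si-circVAMP3 replicate 2, within a range of 0.00404 to 0.119 over all alternatives. The estimate kept its sign in all of them and lay between −0.29 and −0.22. AKT2 (chr19:40230317-40285536, minus strand) holds the 7 letters at 1 place, at chr19:40232091-40232097 in the 3′ UTR.
AKT2 exon 14: tgggggtgggGTGGACAgagaccactc

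AKT1 and AKT2 were also set against each other. In FPKM the ratio of AKT1 to AKT2 was 6.60, 6.36 and 6.73 in si-SCR and 3.49 and 3.29 in si-circVAMP3. The groups did not overlap, and the log2 ratio differed by −0.95. A two-sided exact permutation test over the libraries gave p = 0.1, the smallest value that 3 against 2 libraries allow, so this test cannot reach 0.05. It was 1 of 3 ratios examined, and its adjusted p in that exact test was 0.15.

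The genes whose profile over the 5 libraries was most like that of AKT1 were TAF2, CTBP2, MEGF10, ZNG1B and CERS6. Likeness was the root mean square difference of centered log2 values, and it was 0.0261, 0.0339, 0.0352, 0.0421 and 0.0473 in that order. TAF2, a subunit of the general transcription factor TFIID, was at 16.1, 16.6 and 17.0 FPKM in si-SCR and at 6.99 and 6.63 FPKM in si-circVAMP3. CTBP2, a transcriptional corepressor, was at 10.1, 10.1 and 10.2 FPKM in si-SCR and at 4.16 and 3.81 FPKM in si-circVAMP3. All 5 genes thus had a clear gap between the groups, with log2 fold changes between −1.24 and −1.16. ZNG1B has near-identical copies elsewhere in the genome and its values are uncertain. The canonical transcripts of TAF2 and CERS6 hold GTGGACA 3 times each, those of CTBP2 and MEGF10 2 times each, and that of ZNG1B 1 time. Whether these letters had a part in the likeness was not tested.

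PDPK1 encodes the kinase that phosphorylates the activation loop of AKT and of related kinases. It was at 5.26, 5.76 and 5.74 FPKM in si-SCR and at 6.11 and 5.78 FPKM in si-circVAMP3. The si-circVAMP3 libraries lay above the si-SCR libraries by a margin smaller than the distances within either group. The log2 fold change of 0.08 (95% interval −0.07 to 0.24) did not pass the test (adjusted p = 0.363). PDPK1 shares most of its sequence with the pseudogene PDPK2P, so its level is uncertain where the counting could not place such reads.

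Among the mTORC2 subunits, MAPKAP1 was the one called. It encodes SIN1, which helps present AKT to the complex. MAPKAP1 was at 21.0, 22.0 and 21.1 FPKM in si-SCR and at 15.4 and 15.1 FPKM in si-circVAMP3. The groups were well separated and each was tight. The means were 21.4 ± 0.522 FPKM (SD, n = 3) and 15.3 ± 0.180 FPKM (SD, n = 2), and 71.4% of the si-SCR level was left. Its log2 fold change was −0.47 (SE 0.04, 95% interval −0.58 to −0.37) with an adjusted p of 9.46e-04, which did not reach the stricter fold of 0.58. The estimate lay between −0.50 and −0.45 over the alternative settings.

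MAPKAP1 lies at chr9:125437393-125707234 on the minus strand and holds the 7 letters 3 times, the most of the 9 genes. The matches in the coding sequence are at chr9:125559754-125559760 in exon 6 and at chr9:125543131-125543137 in exon 7. The match in the 3′ UTR is at chr9:125438170-125438176 in exon 12.
MAPKAP1 exon 6: tgatggggagGTGGACAccgatttccc
MAPKAP1 exon 7: ccttattcagGTGGACAacacaaaggt
MAPKAP1 exon 12: caggagctgcGTGGACAgtgtggggtg

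MTOR encodes the catalytic subunit shared by mTORC1 and mTORC2. It was at 11.0, 11.1 and 11.3 FPKM in si-SCR and at 11.2 and 10.6 FPKM in si-circVAMP3. The groups overlapped, and the log2 fold change was −0.03 (95% interval −0.15 to 0.09, adjusted p = 0.701). RICTOR, the scaffold that distinguishes mTORC2, was at 1.23, 1.37 and 1.21 FPKM in si-SCR and at 1.28 and 1.27 FPKM in si-circVAMP3. Its si-circVAMP3 libraries fell within the si-SCR range, and the log2 fold change of 0.0048 had a 95% interval of −0.19 to 0.20 (adjusted p = 0.968). RICTOR rested on 322 to 494 read pairs per library, and smaller shifts than this interval spans were not detectable. The sign of the MTOR estimate turned without si-circVAMP3 replicate 2 (0.015), and that of RICTOR turned in 5 of 14 alternatives. For MTOR, RICTOR and MLST8, a p that misses the threshold does not show equal levels.

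MLST8, a subunit of both mTOR complexes that binds the kinase domain, was at 12.8, 12.8 and 10.1 FPKM in si-SCR and at 11.2 and 11.3 FPKM in si-circVAMP3. The si-SCR group was split, with replicate 3 below and replicates 1 and 2 above both si-circVAMP3 libraries. With all libraries the log2 fold change was −0.07 (95% interval −0.32 to 0.18, adjusted p = 0.641). Without si-SCR replicate 3 it was −0.18 with an adjusted p of 0.0244, within a range of 0.0244 to 0.935 over all alternatives.

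The balance of RICTOR with RPTOR, the scaffold of mTORC1, was compared in each library. In FPKM the ratio of RICTOR to RPTOR was 0.260, 0.307 and 0.313 in si-SCR and 0.282 and 0.289 in si-circVAMP3. The si-circVAMP3 ratios lay inside the si-SCR range. The log2 ratio differed by −0.03, with p = 1 in the exact permutation test, and the sign of so small a difference turned without si-SCR replicate 2 (0.0012) and without si-SCR replicate 3 (0.016).

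**Figure D2:**
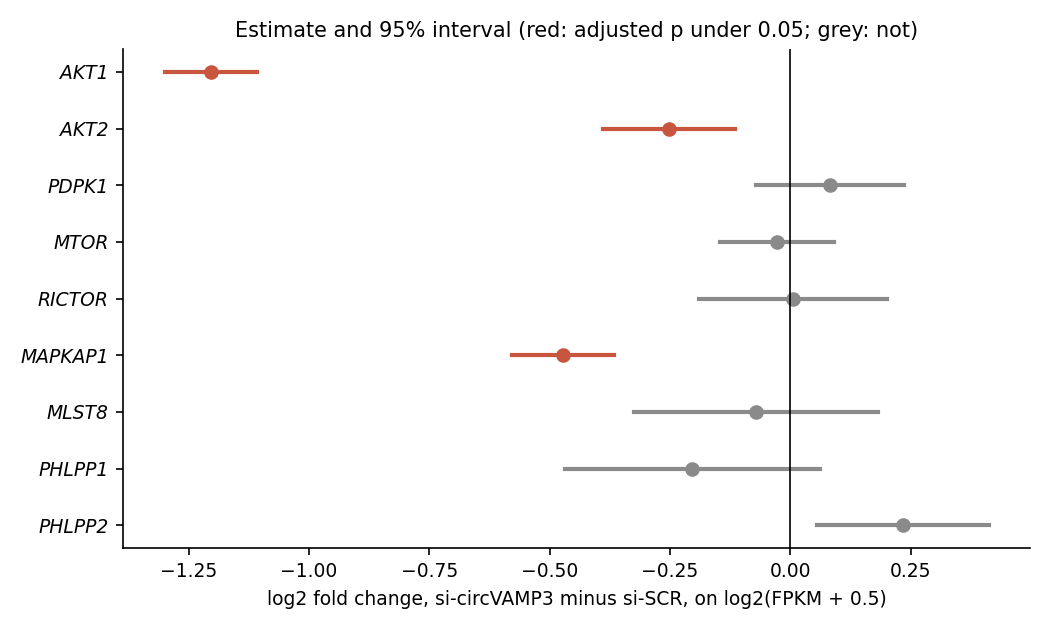
Log2 fold change of the 9 genes, si-circVAMP3 minus si-SCR, on log2(FPKM + 0.5) (horizontal axis), with 95% intervals from limma. AKT1 (−1.20), MAPKAP1 (−0.47) and AKT2 (−0.25) are drawn in red as genes with an adjusted p under 0.05.

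PHLPP1 and PHLPP2 encode the phosphatases that dephosphorylate the hydrophobic motif of AKT. PHLPP1 was at 2.00, 1.74 and 1.90 FPKM in si-SCR and at 1.79 and 1.36 FPKM in si-circVAMP3. Its groups overlapped, since si-circVAMP3 replicate 1 lay above si-SCR replicate 2. The log2 fold change was −0.20 (95% interval −0.47 to 0.06, adjusted p = 0.203), with 301 to 484 read pairs per library. The estimate was −0.36 without si-circVAMP3 replicate 1 and −0.05 without si-circVAMP3 replicate 2, so its size rested on single libraries.

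PHLPP2 was at 3.23, 3.50 and 3.64 FPKM in si-SCR and at 3.97 and 4.33 FPKM in si-circVAMP3. Both si-circVAMP3 libraries lay above all si-SCR libraries. The log2 fold change of 0.23 (SE 0.07, 95% interval 0.06 to 0.41) missed the threshold with an adjusted p of 0.0532. Without si-SCR replicate 3 it was 0.27 with an adjusted p of 0.0346, and over all alternatives the adjusted p ranged from 0.0175 to 0.275, under the threshold in 6 of 14. Its estimates were positive in all 14, from 0.18 to 0.29.

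The PHLPP paralogs were also set against each other. In FPKM the ratio of PHLPP1 to PHLPP2 was 0.621, 0.496 and 0.522 in si-SCR and 0.452 and 0.314 in si-circVAMP3. All si-circVAMP3 ratios were lower, although si-circVAMP3 replicate 1 was close to the lowest si-SCR ratio. The log2 ratio differed by −0.53, with p = 0.1 in the exact permutation test and 0.15 after adjustment over 3 ratios. That difference was −0.27 without si-circVAMP3 replicate 2 and −0.79 without si-circVAMP3 replicate 1.

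The lipid signal upstream of AKT was read from lists of its enzymes. Of 9 class I PI3K subunits, 6 were in the table and 4 were tested, of which 1 was lower, 2 were higher and 1 was neither, beside 16.7% lower and 15.8% higher over all genes tested. PIK3CA, a catalytic subunit, was at 3.38, 3.85 and 3.49 FPKM in si-SCR and at 2.40 and 2.09 FPKM in si-circVAMP3. The groups were separate, with a log2 fold change of −0.57 and an adjusted p of 0.00448. PIK3CB, the other catalytic subunit tested, went the opposite way with a log2 fold change of 0.32 (adjusted p = 0.0122). The regulatory subunit PIK3R3 was higher too (0.35, adjusted p = 0.0284). The median log2 fold change of the 4 genes was 0.17, beside 0.01 for all genes tested. PIK3CD, a further catalytic subunit, was left untested by the filter on low values, at 0.977, 0.891 and 0.741 FPKM in si-SCR and at 1.18 and 1.20 FPKM in si-circVAMP3. With no filter its log2 fold change was 0.31 (adjusted p = 0.0499). The PIK3CB and PIK3R3 calls were lost without either si-circVAMP3 library, and that of PIK3R3 also without si-SCR replicate 1 or 2.

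Of 8 phosphatases and antagonists that oppose PI3K, 6 were tested, 1 was lower and 5 were neither, a share of lower genes like the 16.7% over all genes tested. The lower gene was the lipid phosphatase INPP4A, at 3.27, 3.61 and 3.58 FPKM in si-SCR and at 1.96 and 1.83 FPKM in si-circVAMP3. Both si-circVAMP3 libraries were far below the si-SCR libraries, with a log2 fold change of −0.74 and an adjusted p of 0.00119. The highest of the uncalled genes of this list was INPP5K, with a log2 fold change of 0.26. The median of the list was 0.0075.

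Of 6 partners of AKT and mTORC2 that are not among the 9 genes, 4 were tested. In limma 0 were lower and 0 were higher, beside 16.7% and 15.8% over all genes tested. At an unadjusted p under 0.05, and likewise by voom, 1 of the 4 was higher, TTI1, which helps assemble mTOR complexes. TTI1 had a log2 fold change of 0.15, the highest of the 4, and their median was 0.11. DEPTOR, which binds and inhibits mTOR, was left untested by the filter on low values, at 1.14, 1.10 and 1.07 FPKM in si-SCR and at 0.637 and 0.516 FPKM in si-circVAMP3. Its groups did not overlap, and 52.3% of the si-SCR mean was left. With no filter its log2 fold change was −0.58 (adjusted p = 0.00412). Of 6 genes of mTORC1 and of its TSC inhibitor, 5 were tested. Limma called 0 of the 5, beside 16.7% lower and 15.8% higher over all genes tested. Counts at an unadjusted p under 0.05 and by voom were 0 as well. The log2 fold changes of the 5 genes ran from −0.10 for TSC1 to 0.05 for RHEB.

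Among 13 chaperones, adaptors and scaffolds that bind AKT, 10 were tested, of which 3 were lower, 1 was higher and 6 were neither, with a median of 0.01. Over all genes tested these shares were 16.7% lower and 15.8% higher. TRIB2, a pseudokinase that binds AKT, was at 6.39, 6.62 and 5.71 FPKM in si-SCR and at 3.93 and 3.94 FPKM in si-circVAMP3. The groups did not overlap, and the log2 fold change was −0.60 (adjusted p = 0.00223). The endosomal adaptors APPL2 (−0.49, adjusted p = 0.00236) and APPL1 (−0.22, adjusted p = 0.0160) were lower as well. The chaperone HSP90AB1 was higher by 0.14 on the log2 scale (adjusted p = 0.0425), but its many pseudogene copies make its level uncertain. The APPL1 and HSP90AB1 calls were lost without either si-circVAMP3 library, and that of HSP90AB1 also without any one si-SCR library. HSP90AB1 was called in 6 of 15 alternatives, and was also lost with no filter on low values (adjusted p = 0.0769), with median centering (0.0589) and without the trend (0.0713), within a range of 0.00507 to 0.224.

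PP2A removes phosphate from AKT as well, and all 11 of its listed subunits were tested, with 3 lower, 2 higher and 6 neither and a median of −0.0053, beside 16.7% lower and 15.8% higher over all genes tested. The lower subunits were the regulatory PPP2R2D (−0.60, adjusted p = 0.00164) and PPP2R5D (−0.36, adjusted p = 0.00464) and the catalytic PPP2CB (−0.20, adjusted p = 0.0126). PPP2R2D was at 3.87, 3.97 and 4.13 FPKM in si-SCR and at 2.37 and 2.55 FPKM in si-circVAMP3. The higher subunits were the scaffold PPP2R1B (0.42, adjusted p = 0.00146) and the regulatory PPP2R2A (0.30, adjusted p = 0.00572). PPP2R1B was at 10.7, 10.8 and 11.1 FPKM in si-SCR and at 14.8 and 14.7 FPKM in si-circVAMP3. Without si-circVAMP3 replicate 1 the PPP2R2A and PPP2CB calls were lost, and that of PPP2CB also without si-circVAMP3 replicate 2 or si-SCR replicate 2.

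Of 18 other AGC kinases that PDPK1 or mTORC2 phosphorylate, 13 were tested, with 2 lower, 0 higher and 11 neither and a median of −0.10, beside 16.7% lower and 15.8% higher over all genes tested. Higher genes at an unadjusted p under 0.05 in limma numbered 1, and 0 by voom. RPS6KA6, an S6 kinase relative, was at 1.15, 1.23 and 1.24 FPKM in si-SCR and at 0.749 and 0.881 FPKM in si-circVAMP3. Its groups did not overlap, with a log2 fold change of −0.38 and an adjusted p of 0.0198. RPS6KA6 passed the filter on low values only through its si-SCR level, with group means of 1.21 and 0.815 FPKM, and with no filter its adjusted p was 0.0164, within a range of 0.00732 to 0.128 over all alternatives. The RPS6KA6 call was lost without si-circVAMP3 replicate 1 or 2 and without si-SCR replicate 2.

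Among 16 genes for proteins that AKT phosphorylates, 15 were tested, with 4 lower, 3 higher and 8 neither and a median of −0.08, beside 16.7% lower and 15.8% higher over all genes tested. MDM2, a ubiquitin ligase, was at 8.18, 8.91 and 9.32 FPKM in si-SCR and at 5.09 and 5.44 FPKM in si-circVAMP3. Its groups were separate, with a log2 fold change of −0.69 and an adjusted p of 0.00128. CDKN1A, an inhibitor of cyclin-dependent kinases, was at 11.6, 11.1 and 9.77 FPKM in si-SCR and at 17.7 and 16.7 FPKM in si-circVAMP3. It lay above all si-SCR libraries in both si-circVAMP3 libraries, with a log2 fold change of 0.65 and an adjusted p of 0.00215.

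Smaller differences in the same list were higher GSK3A (0.25, adjusted p = 0.0118) and CASP9 (0.33, adjusted p = 0.0324) and lower TBC1D1 (−0.27, adjusted p = 0.0214) and FOXO1 (−0.26, adjusted p = 0.0226). CDKN1B, like CDKN1A an inhibitor of cyclin-dependent kinases, was the remaining lower gene (−0.24, adjusted p = 0.0401), opposite in direction to CDKN1A. GSK3A is a glycogen synthase kinase, CASP9 a caspase and TBC1D1 a regulator of glucose transporter traffic. In alveolar rhabdomyosarcoma, reads of FOXO1 can also come from its fusion with PAX3, so its level is not that of the intact gene alone. These 5 calls were lost without si-circVAMP3 replicate 1 or 2, and those of TBC1D1, FOXO1, CASP9 and CDKN1B also without si-SCR replicate 2. The CDKN1B call was lost without si-SCR replicate 1 and without the trend as well.

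FOXO transcription factors are held out of the nucleus by active AKT, and 16 of their known target genes were listed. Of the 10 tested, 3 were lower, 3 were higher and 4 were neither, with a median of 0.10. TXNIP, a regulator of glucose uptake and redox balance, was at 15.0, 13.8 and 14.4 FPKM in si-SCR and at 36.0 and 32.8 FPKM in si-circVAMP3. Both si-circVAMP3 libraries were far above the si-SCR libraries, with a log2 fold change of 1.23 and an adjusted p of 1.22e-04. CITED2 (0.30, adjusted p = 0.0141) and the cell death gene BCL2L11 (0.25, adjusted p = 0.0185) were higher. KLF6 (−0.46, adjusted p = 0.00733), catalase, CAT (−0.23, adjusted p = 0.0228), and the stress gene SESN1 (−0.24, adjusted p = 0.0284) were lower. Over all genes tested, 16.7% were lower and 15.8% higher.

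Apart from TXNIP, the FOXO target calls were lost when single libraries were left out. Without si-circVAMP3 replicate 2 this held for CITED2, BCL2L11, KLF6, CAT and SESN1, and without si-circVAMP3 replicate 1 for the same genes apart from CITED2. Without si-SCR replicate 2 the BCL2L11, CAT and SESN1 calls were lost, and without si-SCR replicate 1 that of SESN1.

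The 7 letters of the siRNA were then counted over all transcripts. Of 11070 tested genes with a canonical transcript, 29.5% hold GTGGACA at least once. The share was 50.7% among lower genes (936 of 1847, 95% exact binomial interval 48.4 to 53.0), 27.2% among genes called neither (26.2 to 28.3) and 17.1% among higher genes (300 of 1753, 15.4 to 19.0). Among lower genes past the fold of 0.58 it was 71.8% (219 of 305, 66.4 to 76.8), and among higher genes past that fold 17.5% (20 of 114, 11.1 to 25.8). The intervals of lower, neither and higher genes did not overlap, with the lower genes on top. They treat genes as separate draws and cover counting error only. Without si-circVAMP3 replicate 1 or 2, when fewer genes were called, the share among lower genes was 61.7 or 59.7%.

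**Figure D3:**
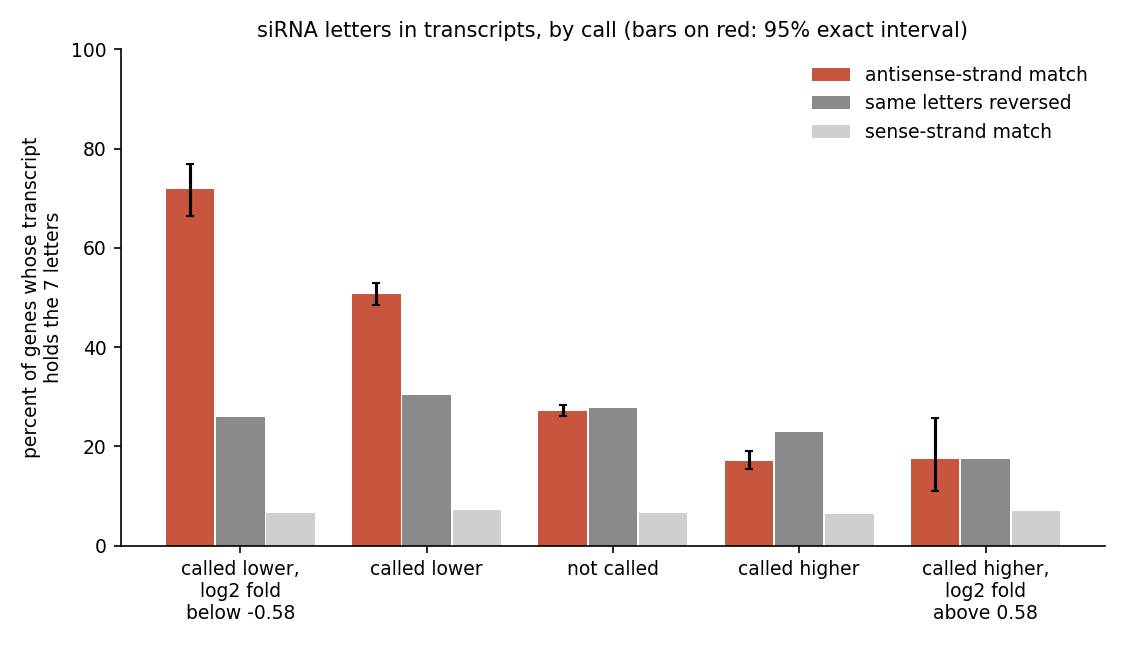
Percent of genes (vertical axis) whose canonical transcript holds the 7 letters opposite to the siRNA seed (red, with 95% exact intervals), the same letters reversed (dark grey) or the letters opposite to the other strand (light grey), by call. The red bars go from 71.8% in lower genes past the fold to 17.1% in higher genes, and the dark grey bars lie between 17.5 and 30.4%.

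For comparison, the same letters read backwards, ACAGGTG, were in 27.5% of all these transcripts, 30.4% of lower, 27.8% of neither and 22.8% of higher genes. CGATGAT, which is complementary to positions 2 to 8 of the listed strand, was in 6.5% of all, 7.1% of lower and 6.3% of higher genes. GTGGACA and ACAGGTG can overlap by the 3 letters ACA or GTG, and CGATGAT overlaps neither. Transcript length differed between the calls, with medians of 3626 bases in lower, 3184 in neither and 2747 in higher genes. Within transcripts of 2000 to 4000 bases, GTGGACA was in 45.9% of lower, 25.4% of neither and 15.8% of higher genes. Matches in the coding sequence were present in 33.3% of lower and 12.0% of higher genes, and matches in the 3′ UTR in 22.0 and 5.2%.

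Of the 9 genes, 6 hold the letters. They are AKT1 with 2 copies, MAPKAP1 with 3, and AKT2, PDPK1, MTOR and PHLPP1 with 1 each. RICTOR, MLST8 and PHLPP2 hold 0. The 3 genes called lower all hold the letters, and so do 3 of the 6 that were not called. The single copies of PDPK1 (chr16:2598080-2598086, plus strand) and MTOR (chr1:11106974-11106980, minus strand) lie in the 3′ UTR, and that of PHLPP1 (chr18:62978976-62978982, plus strand) lies in the coding sequence. Of the 78 tested genes of the pathway lists, the letters were in 8 of 17 lower, 16 of 50 neither and 3 of 11 higher genes. INPP4A holds 6 copies and PPP2R2D 4, whereas TRIB2, APPL1 and PPP2CB hold 0 and were lower as well.

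Over all tested genes, the median log2 fold change was 0.04 with 0 copies (7800 genes), −0.05 with 1 (2471), −0.13 with 2 (616), −0.17 with 3 (132) and −0.15 with 4 or more (51). The share called lower was 11.7, 25.6, 38.0, 37.9 and 39.2% in the same order. Median transcript lengths in that order were 2780, 3895, 5086, 7353 and 9568 bases, and the part of length in these shares was not tested. AKT1, at −1.20, was far below the median of genes with 2 copies. The share of genes with a log2 fold change of −1 or less was 0.15% with 0 copies and 0.69% with 1. It was 2.27% with 2 copies, 3.03% with 3 and 5.88% with 4 or more. The order of the 9 genes did not follow the number of copies, and MAPKAP1 with 3 copies was less reduced than AKT1 with 2. Whether a match of siRNA letters, the circle or the linear VAMP3 transcript had a part in the level of any of these genes was not tested.

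**Figure D4:**
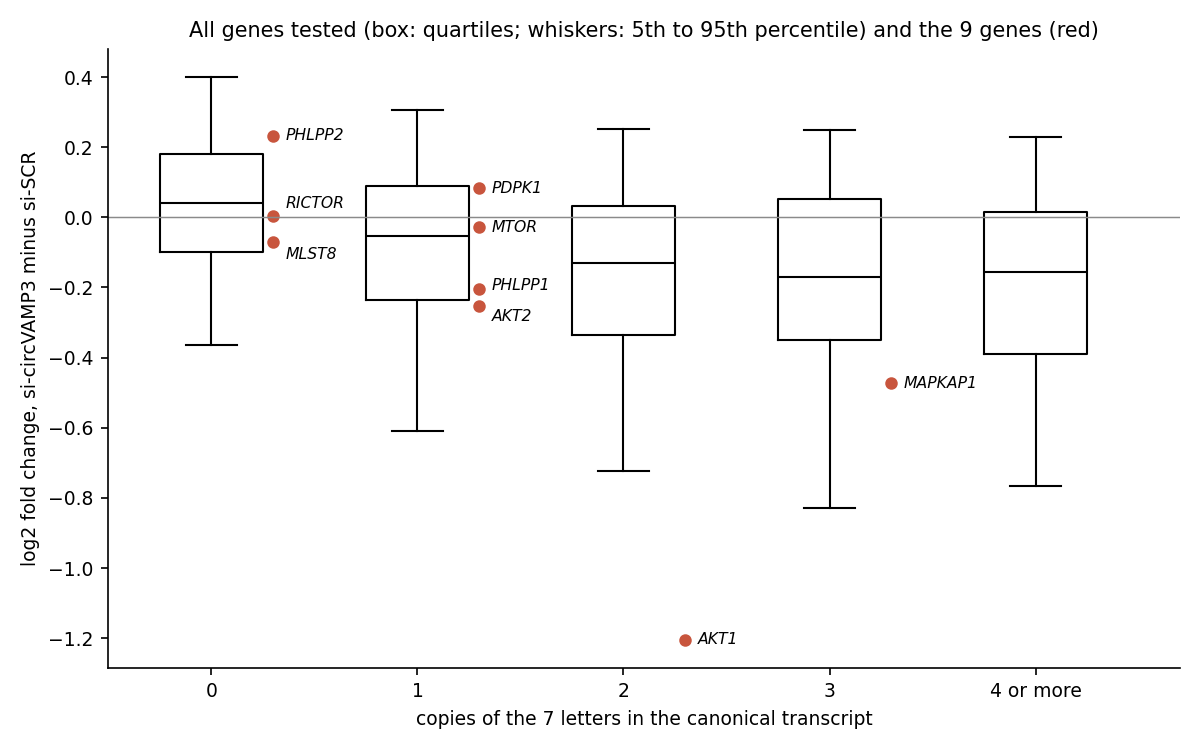
Log2 fold change, si-circVAMP3 minus si-SCR (vertical axis), by the number of copies of the 7 letters in the canonical transcript (horizontal axis), with boxes for quartiles and whiskers from the 5th to the 95th percentile of all tested genes. The box medians are 0.04, −0.05, −0.13, −0.17 and −0.15, and the 9 genes are red points, with AKT1 at −1.20 below the whisker of its column.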

How the data were processed

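The FPKM values were made by the authors: reads were trimmed with Trimmomatic, aligned to GRCh38 with Ensembl annotation by STAR 2.5.2b, counted by strand with htseq-count, filtered on low CPM and converted with edgeR. The deposited table holds 13822 gene IDs, of which 39 had no symbol in the reference table, and 0 per-sample columns were left out.

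The members and lists were chosen with earlier results of these data known. Genes with a mean of at least 1 FPKM were fitted with limma 3.58.1 in R 4.3.3 (trended eBayes) on log2(FPKM + 0.5), si-circVAMP3 against si-SCR, with Benjamini-Hochberg adjustment over all 11094 genes tested. The fit was tested on simulated data. Ratios of genes were compared by a two-sided exact permutation test. All 9 genes were named, VAMP3, the 5 genes nearest to AKT1, and from each list the called genes, at most 6 by adjusted p. CDKN1B, TTI1, INPP5K, DEPTOR, PIK3CD and the markers shown singly were picked after their values were seen, and some list genes are not reported here.

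Values of 13821 genes equal whole read pairs over a whole-number length, with a tolerance of 0.001 on the length and a largest relative difference of 4.2e-14 between a value and whole reads. For 9504 genes (68.8%) that length is the union of GENCODE v44 exons. Read pairs gave depth and an alternative fit with limma's voom. The search for siRNA letters, the siRNA sequence being taken from the study's list of oligonucleotides, used Python 3.11.15, and 24 tested genes had no canonical transcript. This search and voom were added after seeing the data.

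Alternatives were pseudocounts of 0.1 and 1, no filter or a mean of at least 5 FPKM, median centering, quantile normalization, no trend, library weights, a replicate block, and leaving out each library. The replicate block and leaving out si-SCR replicate 3 give the same estimates, so they are not separate checks of an estimate.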

Additional observations from a re-analysis of the deposited data

How the results depend on the processing

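AKT1 and MAPKAP1 were called lower in 15 of 15 alternatives and AKT2 in 12. With single libraries left out, the count of calls ran from 1250 to 3939 and that of the 9 genes called from 2 to 5. Where one si-circVAMP3 library was left, it was assumed to vary like si-SCR. The share of lower genes with the siRNA letters ran from 50.9 to 61.7% with single libraries left out. This share was 47.8% with library weights and 56.1% (of all genes 38.2%) when any annotated transcript was searched. The lower part of all calls was 51.3%, and ran from 47.0% with a mean of at least 5 FPKM to 61.5% without si-circVAMP3 replicate 1. It was also below 50% with median centering (49.0%), library weights (49.8%) and without si-SCR replicate 3 (49.9%).

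RICTOR changed sign, to −0.043 with library weights and to −0.019 with the replicate block. The latter is also the estimate without si-SCR replicate 3. With single libraries left out RICTOR lay within −0.019 to 0.044. MTOR ran from −0.071 to 0.015, and the log2 ratio of RICTOR to RPTOR from −0.12 to 0.016, with single libraries left out. The cause was not tested. A minimum of 5 FPKM left RICTOR, PHLPP1 and PHLPP2 untested.

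The samples share a number and not a known source. Same-numbered deviations correlated at −0.17 and −0.04, and different-numbered ones at −0.11 to 0.17. Deviations of the 2 si-circVAMP3 libraries mirror each other, so these values are not separate checks of pairing. Because si-SCR replicate 3 has no si-circVAMP3 library of its number, the replicate block gave the same estimates as leaving that library out. With the replicate block 3324 genes were called. PHLPP2 was among them beside AKT1, AKT2 and MAPKAP1, and so were CDH15 (adjusted p = 0.0119), COL3A1 (0.0305) and DES (0.0482). HSP90AB1 (adjusted p = 0.148), TBC1D1 (0.0540), CAT (0.0596) and SESN1 (0.0665) were not. These differences from the main fit therefore cannot be credited to pairing. Of 35 other named genes that were called, 18 were called in all alternatives that tested them. RICTOR and PHLPP1 rest on 322 to 494 and 301 to 484 read pairs per library. What set the width of their intervals was not tested.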
